A study of Mus musculus with 47 samples.

Results

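Senescent B cell lymphoma cultures of 2 kinds were compared: those whose Suv39h1 activity had been restored with a switchable protein, and those that had kept their own Suv39h1. The members were the arrays that the labels call senescent in these genotypes, 17 of the 47 arrays of the series. Of these, 3 were 'Suv39h1- plus Suv39h1ER' cultures given Adriamycin (ADR, doxorubicin, a DNA-damaging drug) together with 4-hydroxytamoxifen (4OHT), here called restored. The other 14 were Suv39h1 WT lymphomas given ADR alone. The native (untreated) arrays labelled as the same 3 cultures and 14 lymphomas were taken as each culture's starting level.

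All cultures were primary lymphoma cells from lymph nodes of mice with the Emu-myc transgene, which expresses Myc in cells of the B lineage. All of them, native cultures included, carried retroviral Bcl2, which blocks apoptosis, after puromycin selection for 48 h. Their feeder layer was NIH 3T3, a mouse fibroblast line, irradiated with 20 Gy, so fibroblast RNA could be present in any array. WT lymphomas received 0.05 µg/ml ADR for 5 days. The labels give neither the days of the combined treatment nor the dose of 4OHT, and no WT culture received 4OHT, so an effect of 4OHT itself and the restored protein cannot be told apart. RNA (3 µg) was measured on Affymetrix mouse arrays, and values below are log2 levels, in which a difference of 1 is a doubling. The cells are bulk samples, in which fewer cells of a type and less RNA per cell cannot be told apart.

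Suv39h1 is a histone methyltransferase that trimethylates lysine 9 of histone H3, the mark of condensed, silent chromatin. Senescence is a lasting exit from the cell cycle, in which proliferation genes bound by E2F factors are packed into such chromatin while secretory, inflammatory and lysosomal genes rise. Suv39h1ER joins the enzyme to a ligand-binding domain of the estrogen receptor, which holds it inactive until 4OHT binds. Probe sets for Suv39h1 and Trp53 were not analysed here, so the genotype was not checked on the gene itself. Esr1, the mouse estrogen receptor gene, read 4.39, 4.71 and 5.34 in the restored cultures SuvER-4146, SuvER-4936 and SuvER-5043, against a lowest, median and highest of 3.73, 4.16 and 4.74 in WT lymphomas. These ranges overlapped.

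The independence of the 3 restored cultures and the pairing of their arrays are in doubt. Over 18 probe sets for immunoglobulin, Xist and Y-linked genes, the arrays of 1 WT or Suv39h1- lymphoma correlated at a median of 0.871 (0.417 to 0.963). Those of different lymphomas correlated at a median of -0.079 (-0.86 to 0.98). A high value by itself therefore does not show that arrays share a culture. The native and 4OHT arrays of culture SuvER-4936 and all 3 arrays of culture SuvER-5043 correlated with each other at 0.955 to 0.985, although the labels give them as different cultures. The 4OHT array of culture SuvER-4146 correlated with these 5 arrays at 0.513 to 0.65, but with the native array of its own culture at -0.136. That native array correlated with the arrays of Suv39h1- lymphoma 4936 at 0.824 and 0.814, and the 4OHT array did at -0.257 and -0.29. The ADR-alone array of SuvER-4936 correlated with its own native array at -0.882, and with lymphoma 4936 at 0.725 and 0.794. Changes of SuvER-4146 from native rest on a labelled pair whose 2 arrays were unlike. Xist, transcribed from the inactive X chromosome, read 6.11, 6.27 and 6.19 in the restored cultures, where the native array of SuvER-4146 read 9.60. Over all genes, deviations of treated and native arrays from their group means correlated at -0.099, 0.001 and 0.07 in these 3 cultures. The WT median was 0.231 (-0.229 to 0.56). The 3 cultures are reported as labelled, and results are given without each culture and with SuvER-4936 and SuvER-5043 averaged as 1. Nothing in the labels says whether arrays came from separate animals beyond the lymphoma numbers, so the p-values speak for these cultures only. In the senescent and native comparisons they measure the spread between cultures. Changes from native and their difference came from 1 fit to all arrays of the series, with 1 shared estimate of the spread per gene. That spread is within cultures and draws on the WT and Suv39h1- lymphomas as well as the restored cultures.

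B cell markers were present in both groups. Of 18 measured B cell genes none was called in the senescent comparison, and their median difference was -0.08. Over all genes 2.13% were called higher and 2.27% lower. Cd79b, a signalling chain of the B cell receptor, read 11.06, 10.46 and 10.50 in restored cultures, against 9.61, 10.64 and 11.87 (lowest, median, highest) in WT lymphomas. Ms4a1, which encodes CD20, read 8.57, 6.71 and 6.56 in restored cultures, against 5.44, 8.27 and 10.73 in WT lymphomas. The restored levels lay within the WT range for both genes. With the fibroblast list as a covariate 3 of the 18 were lower in restored cultures, with a median of -0.88, where 263 of all 18194 genes were lower. With the Gapdh 3′ minus 5′ difference as a covariate 2 were lower, with a median of -0.29, where 291 of all genes were lower. With the 18S covariate none was called, with a median of -0.49, where 25 of all genes were higher and 40 lower. Between native arrays 4 of the 18 were above 0, with a median of -0.50. Of the 18, 2 were called lower in native restored cultures, against 0.330% of all genes. Cd79a, given below, is 1 of these 2. The control signal for 18S ribosomal RNA was higher in restored cultures, at 8.24 to 9.40, against 7.20 to 8.59 in WT lymphomas (exact permutation test, two-sided, p = 0.0118, adjusted over 8 tests 0.0235). It was also higher in the native arrays of these cultures, at 8.82 to 10.06, against 7.34 to 8.10 in native WT lymphomas, so this signal moves with the group, and counts with it as a covariate stand beside the results. Signs of RNA quality moved with the group as well. The Actb 3′ minus 5′ difference was 0.88 to 0.92 in treated restored cultures, against 0.38 to 1.12 in treated WT lymphomas (exact permutation test, adjusted p = 0.047), and 0.91 to 1.39 in native restored cultures, against 0.31 to 0.83 in native WT lymphomas (0.0078). That of Gapdh was 0.34 to 0.38 in treated restored cultures, against 0.01 to 0.91 in treated WT lymphomas (exact permutation test, adjusted p = 0.29), and 0.29 to 0.40 in native restored cultures, against -0.02 to 0.17 in native WT lymphomas (0.0078). The native groups did not overlap in either. The part of the Actb difference in the results was not tested.

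After treatment, restored and WT lymphomas moved the same genes in the same direction more often than not. With each culture compared with the native array of its label, 537 of 18194 genes changed in restored cultures (2.95% of those tested), 251 higher (1.38%) and 286 lower (1.57%). In WT lymphomas 5489 changed (30.2%), 2925 higher (16.1%) and 2564 lower (14.1%). A gene counted as changed at a limma adjusted p under 0.05, and the 14 WT pairs give that test more reach than the 3 restored pairs do. A total of 432 genes changed in both in the same direction, 198 higher and 234 lower, which is 80.45% of the restored and 7.87% of the WT changes. Fam189b alone changed in opposite directions, at 0.95 in restored cultures and -0.38 in WT lymphomas, and its restored call was lost without SuvER-4936 (adjusted p = 0.12) and without SuvER-5043 (0.16).

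The direction held well beyond the genes called in both. Of the WT changes, 83.37% had the same sign in restored cultures, against 55.54% of the genes not called in WT lymphomas. Of 977 genes with a called WT change of at least 1, 899 had the same sign in restored cultures and 108 were called there. Across all genes the restored and WT changes correlated at 0.60, with a slope of 0.55 restored per WT log2 unit. An imperfect correlation lowers such a slope, so it does not show that the restored steps were smaller. Among the genes called in both, the restored change was the larger one for 179 of 198 shared rises and 191 of 234 shared falls. The shared genes were chosen on the same changes. They had to pass with 3 restored pairs, which takes a larger change than passing with 14 WT pairs. This choice of genes therefore favours a larger restored change. All of this is a description across genes, which are not independent replicates and share the 17 cultures. Counts of restored changes rested on few cultures: 326 without SuvER-4146, 90 without SuvER-4936, 162 without SuvER-5043 and 58 with SuvER-4936 and SuvER-5043 as 1 culture. Genes called in both numbered 275, 67, 107 and 49 under those settings. Without the culture as a block the restored count was 267 and the shared count 202.

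**Figure D1:**
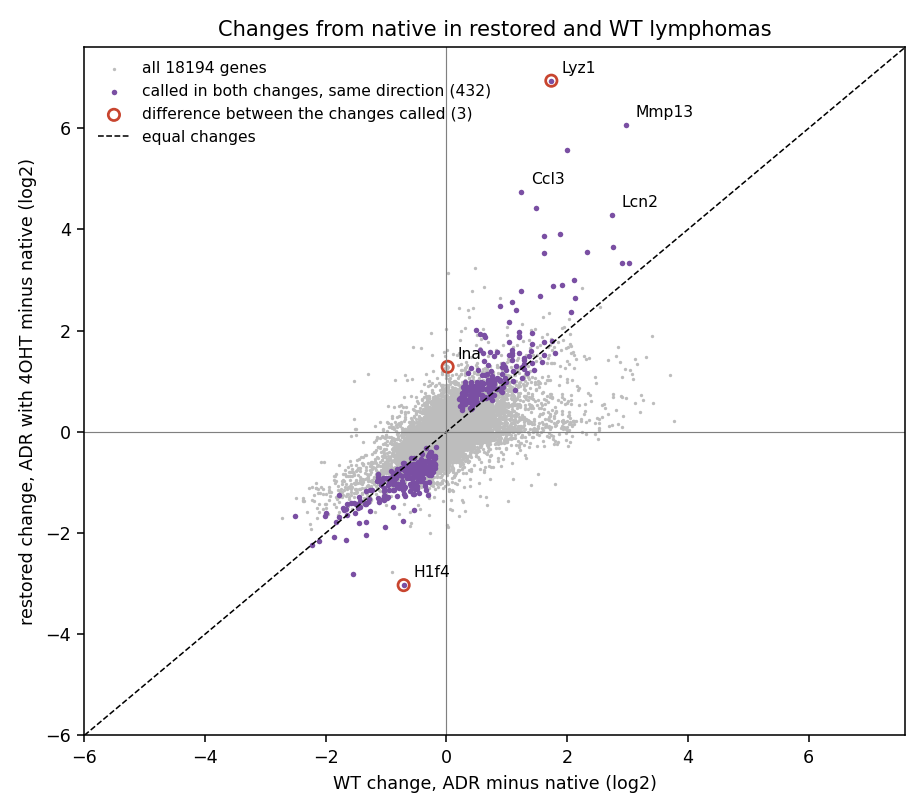
Change from native in restored cultures (vertical axis, log2) against change from native in WT lymphomas (horizontal axis, log2) for 18194 genes. Each point is 1 gene; purple marks the 432 genes called in both in the same direction, rings mark Lyz1, Ina and H1f4, and the dashed line is equal change. Of the purple genes, 179 of 198 rises lie above the line and 191 of 234 falls below it. The choice of these genes favours larger restored changes.

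The difference between both changes, restored minus WT, passed the test for 3 genes, 0.0165% of those tested, and 1628 genes had an unadjusted p under 0.05. The 95% interval of this difference reached 0.44 to either side for a median gene, so genes that missed the test are not shown to respond alike. Of the 432 shared genes, 310 (71.76%) had a 95% interval of the difference within 1 log2 unit of 0. That count was 117 without SuvER-4146, 29 without SuvER-4936, 42 without SuvER-5043 and 20 with SuvER-4936 and SuvER-5043 as 1.

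Proliferation genes fell in both, with few passing the test in restored cultures. Of 33 DNA replication genes, 7 fell in restored cultures, with a median change of -0.93, and 33 fell in WT lymphomas, with a median of -1.31. Of 34 mitosis genes, 1 fell in restored cultures, Aurkb, with a list median of -1.22, and 34 fell in WT lymphomas, with a median of -2.01. Of 14 DNA repair genes, 4 fell in restored cultures (Bard1, Chek1, Fanci and Fanca) and 14 in WT lymphomas. The median change over all genes was -0.01 in restored cultures. Of all genes 1.57% fell in restored cultures and 14.1% in WT lymphomas. All 33 replication genes and all 34 mitosis genes had values below 0 in restored cultures. These medians describe the lists, which were not tested as sets.

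By its labelled pair, culture SuvER-4146 moved least in the proliferation lists, and those 2 arrays were unlike in the probe sets above. Its mean change over the mitosis genes was -0.23, against -1.41 in SuvER-4936 and -1.92 in SuvER-5043, and WT lymphomas ran from -4.00 over a median of -1.99 to -0.19. Without SuvER-4146, 4 mitosis genes and 6 replication genes fell in restored cultures. Without SuvER-4936 or without SuvER-5043 none of either list did. DNA repair genes that fell numbered 4 without SuvER-4146 and 0 without SuvER-4936, without SuvER-5043 or with both as 1 culture.

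Among genes that fell in both, Tk1, thymidine kinase of the nucleotide salvage pathway, stood at 7.56, 7.12 and 6.70 in restored cultures, against 8.79, 8.93 and 8.99 in their native arrays. In WT lymphomas it stood at 5.87, 7.05 and 7.94 (lowest, median, highest) after ADR, against 7.99, 8.99 and 9.47 native. The changes were -1.78 and -1.82 (limma adjusted p = 0.018 and 1.5e-07), with no overlap between treated and native in either. Gins1, a subunit of the replicative helicase, changed by -1.69 in restored cultures and -1.77 in WT lymphomas. Cenpp, a centromere protein, changed by -2.24 and -2.23, and Rad54b, a recombination repair factor, by -2.13 and -1.67. Ska1, which links kinetochores to microtubules, changed by -2.15 and -2.12. Nrm, which encodes nurim of the nuclear membrane, changed by -2.09 and -1.86, but its next probe set read 0.01 in restored cultures. Aurkb, the kinase of the chromosomal passenger complex, stood at 8.35, 7.74 and 6.93 in restored cultures, against 9.09, 9.65 and 9.30 native, a change of -1.67 (adjusted p = 0.045). All 7 genes lost their restored call without SuvER-4936 and without SuvER-5043, at adjusted p of 0.059 to 0.36, and Tk1, Gins1 and Aurkb kept it without SuvER-4146.

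Mki67, the proliferation marker Ki-67, stood at 10.41, 9.34 and 8.69 in restored cultures, against 10.80, 11.46 and 10.93 native, a change of -1.59 that did not pass (adjusted p = 0.096). In WT lymphomas it changed by -2.31 and fell in 14 of 14. After treatment its restored levels lay within the WT range of 6.83 to 10.52. Cdkn1a, the p53-induced cyclin kinase inhibitor p21, changed by 0.70 in restored cultures, which did not pass, and by 1.11 in WT lymphomas. Its level was 10.37, 11.77 and 11.84 in restored cultures, against 11.05, 11.59 and 12.19 in WT lymphomas. The 27 p53 targets had a median change of 0.50 with none called in restored cultures, and of 0.58 with 19 higher and 2 lower in WT lymphomas. Of all genes 16.1% were higher and 14.1% lower in WT lymphomas. Cdkn2a, which encodes p16 and p19ARF, read 7.20, 5.57 and 2.36 in restored cultures, against 3.33, 4.08 and 7.49 in WT lymphomas, and changed in neither.

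**Figure D2:**
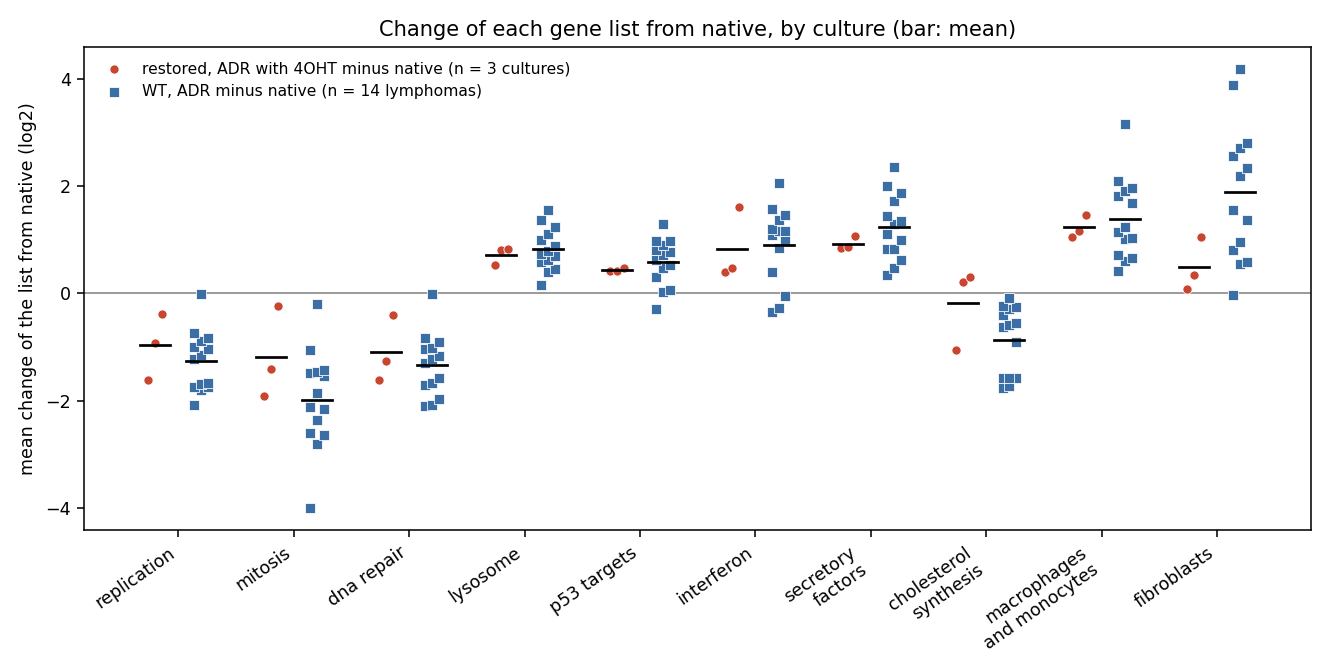
Mean change from native (log2) per culture for gene lists, with restored cultures left of WT lymphomas for each list; each point is 1 culture and the bar is the group mean. Replication and mitosis lie below 0 and lysosome and secretory factors above 0 in every restored culture.

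Lysosomal genes rose in both. Of 26 lysosome genes, 7 rose in restored cultures with a list median of 0.70, and 24 rose in WT lymphomas with a median of 0.81. Of all genes 1.38% rose in restored cultures and 16.1% in WT lymphomas. Lamp1, an abundant protein of the lysosomal membrane, stood at 11.08, 11.00 and 11.13 in restored cultures, against 10.01, 9.70 and 9.88 native. In WT lymphomas it stood at 10.45, 11.20 and 12.08 after ADR, against 9.62, 10.06 and 10.62 native. The changes were 1.21 ± 0.19 in restored cultures and 1.10 in WT lymphomas (SE, adjusted p = 0.0017 and 1.2e-08), and their difference was 0.11, with an interval of -0.32 to 0.53. Lamp1 held its restored call without each culture.

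The other 6 were Tpp1, Ctsd and Ctss, proteases of the lysosome, Mcoln1, its calcium channel, and Atp6v0d1 and Atp6ap1, parts of the proton pump. Tpp1 changed by 1.30 in restored cultures and 1.15 in WT lymphomas, Ctsd by 1.55 and 1.80, and Ctss by 1.02 and 0.69. Atp6v0d1 stood at 9.92, 9.99 and 9.95 in restored cultures, against 9.05, 8.89 and 8.98 native, a change of 0.98, and WT lymphomas changed by 0.97. Mcoln1 changed by 0.85 in restored cultures and 0.66 in WT lymphomas, and Atp6ap1 by 0.89 and 0.93. The lysosome count in restored cultures was 8 without SuvER-4146, 2 without SuvER-4936 and 3 without SuvER-5043. Glb1, the enzyme behind senescence-associated beta-galactosidase staining, changed by 0.41 in restored cultures, which did not pass, and by 0.38 in WT lymphomas. Sqstm1, the autophagy receptor p62, changed by 1.23 in restored cultures and 1.29 in WT lymphomas, and Map1lc3b, a coat protein of autophagosomes, by 0.79 and 0.53. These were the 2 of 23 autophagy genes called in restored cultures, where 1.38% of all genes rose. The count was 1 without SuvER-4146, 2 without SuvER-4936, and 0 without SuvER-5043 or with SuvER-4936 and SuvER-5043 as 1.

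Promoter sequences are shown for 4 genes, 2 cholesterol synthesis genes whose senescent levels differed between the groups and 2 lysosome genes that rose in both. Each is 300 bases of RefSeq (GRCm38.p6) that reach from upstream of the annotated start into the first transcribed bases, 5′ to 3′ on the gene's strand. They lie at chr13:119690101-119690400 (Hmgcs1, plus strand), chr13:8885356-8885655 (Idi1, plus strand), chr8:105566015-105566314 (Atp6v0d1, minus strand) and chr8:3500269-3500568 (Mcoln1, plus strand). Capitals mark CCAAT and TCACNCCAC, the core of a sterol element, in the cholesterol genes and TCACGTGA, an E-box bound by lysosomal regulators of the TFEB family, in the lysosome genes, on either strand (CCAAT reads ATTGG on the other).
Hmgcs1: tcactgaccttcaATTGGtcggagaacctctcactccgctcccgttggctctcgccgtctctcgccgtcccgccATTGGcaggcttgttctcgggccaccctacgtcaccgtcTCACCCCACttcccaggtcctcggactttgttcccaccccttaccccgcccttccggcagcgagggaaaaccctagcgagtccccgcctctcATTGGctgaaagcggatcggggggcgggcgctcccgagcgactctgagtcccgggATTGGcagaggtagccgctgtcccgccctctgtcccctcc
Idi1: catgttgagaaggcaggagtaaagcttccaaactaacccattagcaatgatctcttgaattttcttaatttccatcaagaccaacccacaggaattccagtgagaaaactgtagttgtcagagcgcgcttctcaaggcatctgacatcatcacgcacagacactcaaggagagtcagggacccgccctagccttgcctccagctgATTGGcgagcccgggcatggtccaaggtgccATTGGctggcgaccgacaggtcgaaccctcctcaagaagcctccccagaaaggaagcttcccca
Atp6v0d1: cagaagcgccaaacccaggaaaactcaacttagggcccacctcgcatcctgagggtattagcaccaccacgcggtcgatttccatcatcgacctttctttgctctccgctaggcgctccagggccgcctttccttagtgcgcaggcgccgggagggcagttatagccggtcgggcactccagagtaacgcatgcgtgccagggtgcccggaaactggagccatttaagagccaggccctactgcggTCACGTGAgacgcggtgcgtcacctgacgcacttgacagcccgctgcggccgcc
Mcoln1: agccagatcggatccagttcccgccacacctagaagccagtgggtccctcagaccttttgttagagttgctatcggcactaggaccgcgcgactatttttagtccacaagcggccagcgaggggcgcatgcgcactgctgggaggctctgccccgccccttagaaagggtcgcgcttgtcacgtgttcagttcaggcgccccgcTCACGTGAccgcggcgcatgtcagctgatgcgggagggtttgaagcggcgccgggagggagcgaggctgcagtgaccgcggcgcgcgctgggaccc

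CCAAT was found in 11 of 11 cholesterol synthesis promoters listed, against 41.06% of the 27025 promoters of genes outside chromosome 18, and in 9 of 21 lysosome promoters. TCACNCCAC was found in 1 of the 11, Hmgcs1, 137 bases before the start, against 1.44% of all promoters. TCACGTGA was found in 5 of 21 lysosome promoters, against 1.12% of all. It lay 4 bases before the start of Atp6v0d1 and 46 bases before that of Mcoln1. A match of letters is a description of these windows and shows no binding.

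Some secretory and inflammatory genes rose in both. Of 40 secretory factors, 7 rose in restored cultures with a list median of 0.38, where 1.38% of all genes rose, and 27 rose in WT lymphomas with a median of 1.04, where 16.1% of all genes rose. Markers of other cells rose beside them in WT lymphomas, 25 of 27 fibroblast markers (median 1.82) and 14 of 18 macrophage markers (median 1.61). In restored cultures none of the fibroblast markers was called, though 23 of 27 lay above 0 (median 0.21), and 3 of the macrophage markers rose (median 0.15). The part of these cells in the secretory changes was not tested. The 7 were the collagenase Mmp13, the elastase Mmp12, the chemokines Ccl3, Ccl5 and Cxcl2, the cytokine Il6 and the adhesion molecule Icam1. Mmp13 stood at 9.68, 10.36 and 9.26 in restored cultures, against 3.74, 2.50 and 4.85 native. In WT lymphomas it stood at 4.60, 8.60 and 9.88 after ADR, against 3.26, 4.59 and 7.53 native. Its changes were 6.07 ± 0.80 and 2.97 (SE, adjusted p = 0.0003 and 1.6e-06), and the difference of 3.09 did not pass (adjusted p = 0.30). Mmp13 held its restored call without each culture.

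Il6 changed by 2.64 in restored cultures and 2.13 in WT lymphomas, Cxcl2 by 3.34 and 2.90, and Mmp12 by 3.65 and 2.76. Icam1 changed by 1.13 and 0.63. Ccl5, which attracts T cells and monocytes, stood at 9.40, 7.50 and 6.51 in restored cultures, against 5.18, 5.12 and 5.78 native, a change of 2.44 (adjusted p = 0.016). In WT lymphomas Ccl5 changed by 0.44, which did not pass (adjusted p = 0.22). Ccl5 lost its call without SuvER-4146 (adjusted p = 0.21) and without SuvER-4936 (0.12). Secretory genes that rose numbered 5 without SuvER-4146 and 3 without either other culture.

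Rela, a subunit of the inflammatory factor NF-kB, changed by 0.72 in restored cultures and 0.59 in WT lymphomas, and its target Traf1 by 1.97 and 1.20. Of 16 NF-kB genes, 3 rose in restored cultures and 9 in WT lymphomas, where 1.38% and 16.1% of all genes rose. The restored count was 1 without each culture in turn and 0 with SuvER-4936 and SuvER-5043 as 1. Of 27 interferon-stimulated genes, 2 rose in restored cultures, Gbp2 (2.78) and Xaf1 (1.59), with a list median of 0.65, and 22 rose in WT lymphomas with a median of 0.75. Culture SuvER-4146, by its labelled pair, had a mean interferon change of 1.61, and SuvER-4936 and SuvER-5043 had 0.41 and 0.47. Without SuvER-4146, Gbp2 and Xaf1 lost their calls (adjusted p = 0.27 and 0.51). Without SuvER-4936 both were lost too (0.055 and 0.12), and without SuvER-5043 Gbp2 passed (0.031) and Xaf1 did not (0.068). Lcn2, an iron-binding protein of the inflammatory response, changed by 4.29 in restored cultures and 2.74 in WT lymphomas, and Acod1, which makes itaconate, by 3.56 and 2.33. Cd44, a hyaluronan receptor, changed by 1.32 in restored cultures and 0.69 in WT lymphomas and held in the restored cultures without each culture.

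The treated arrays themselves parted for 800 genes (4.40% of those tested), 387 higher (2.13%) and 413 lower (2.27%) in restored cultures. Of these, 178 differed by at least 1. For 551 of the 800 all 3 restored arrays lay outside the range of the 14 WT arrays, which was so for 5.12% of all genes. Calls and ranges come from the same arrays, so this separation is a description and no separate support. The split between higher and lower rested on scaling: it was 699 higher and 208 lower with each array centred on its median, and 620 and 321 after a second quantile normalization. Centring moved the median difference of all genes by 0.13. The count was 274, 264 and 347 without SuvER-4146, SuvER-4936 and SuvER-5043 in turn, 244 with SuvER-4936 and SuvER-5043 as 1 culture, 466 with the fibroblast list as a covariate and 65 with the 18S signal as a covariate. Of 43 calls named for this comparison, 15, 11 and 14 held without each culture in turn.

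Cholesterol synthesis genes were higher in restored cultures. All 15 measured genes of the pathway had a positive difference, with a median of 0.91 against -0.03 over all genes, and 8 were called. Of all genes 2.13% were called higher. Idi1, which makes the isoprenoid building block dimethylallyl diphosphate, stood at 9.56, 9.71 and 10.24 in restored cultures, against 6.90, 7.79 and 9.14 in WT lymphomas. The difference was 1.98 ± 0.34 (SE, adjusted p = 0.0044), and no restored array overlapped the WT arrays. Lss, which closes the sterol ring, stood at 7.30, 7.98 and 8.18 in restored cultures, against 6.25, 6.66 and 7.22 in WT lymphomas, a difference of 1.13 (adjusted p = 0.002). Idi1 and Lss held without each culture and with SuvER-4936 and SuvER-5043 as 1.

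The other called members were Cyp51 (1.34), a sterol demethylase, Stard4 (1.26), a sterol carrier, and Hmgcs1 (1.13), which makes HMG-CoA. Srebf2 (1.09), the factor that switches the pathway on, Insig1 (1.08), which restrains that factor, and Dhcr7 (0.90), the last step of synthesis, completed them. The promoters of Hmgcs1 and Idi1 printed above belong to this group. In the changes from native, none of the 15 was called in restored cultures, with a median of -0.18, and 12 fell in WT lymphomas, with a median of -0.83. The shares of all genes that fell were 1.57% and 14.1%. Between native arrays 13 of the 15 already lay above 0, with a median of 0.23, and none was called. The difference between the changes was above 0 for all 15, with a median of 0.70, and none passed. Srebf2 changed by -0.06 in restored cultures and fell in 14 of 14 WT lymphomas (-1.01), and the difference of 0.95 had an interval of 0.47 to 1.43 but did not pass over all genes. Per labelled pair the list changed by -1.06 in SuvER-4146, 0.31 in SuvER-4936 and 0.21 in SuvER-5043, against -1.76, -0.62 and -0.09 (lowest, median, highest) in WT lymphomas. Calls in the pathway numbered 6 without SuvER-4146, 2 without SuvER-4936, 2 without SuvER-5043, 2 with the fibroblast covariate and 0 with the 18S covariate, under which the list median was 1.20.

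**Figure D3:**
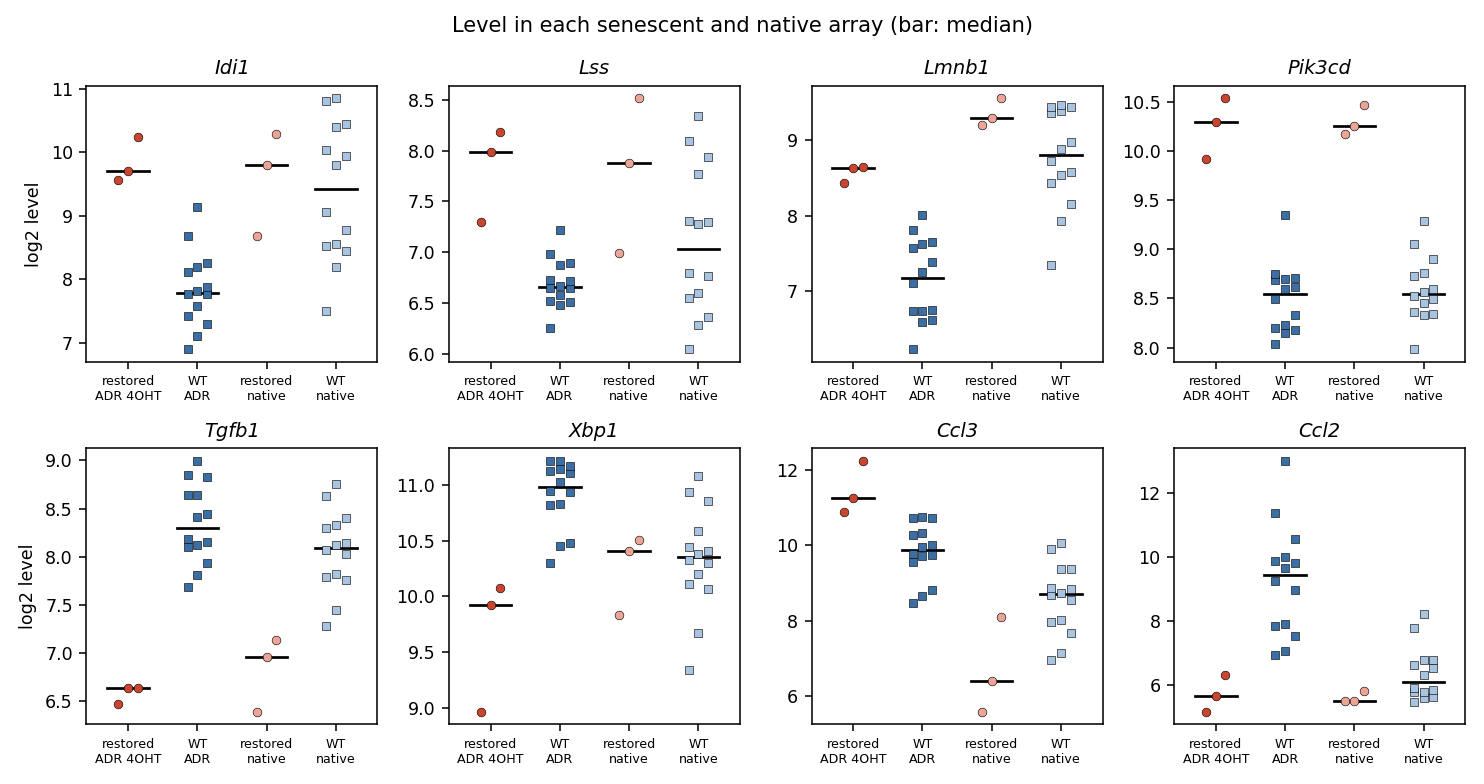
Level per array (log2, vertical axis) of 8 genes that differed between senescent arrays, with treated restored cultures, treated WT lymphomas, native restored cultures and native WT lymphomas from left to right; points are arrays and bars are group medians. In treated restored cultures Idi1, Lss, Lmnb1, Pik3cd and Ccl3 lie above every treated WT array, and Tgfb1, Xbp1 and Ccl2 below.

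Lmnb1 was the 1 gene called among 17 genes of senescence arrest and the lamina, a share near that of all genes. Lmnb1, the lamin whose loss marks senescence, stood at 8.65, 8.64 and 8.43 in restored cultures, against 6.22, 7.17 and 8.01 in WT lymphomas, a difference of 1.43 (adjusted p = 0.015). It changed from native by -0.79 in restored cultures, which did not pass, and by -1.62 in WT lymphomas, falling in 14 of 14. Its call was lost without SuvER-4146 (adjusted p = 0.077) and without SuvER-4936 (0.074). Of 24 genes of H3K9 methylation and heterochromatin, a list that also holds Lmnb1, 3 were higher and 1 lower. Of all genes 2.13% were higher and 2.27% lower. The H3K9 demethylase Kdm4a (0.89) and the DNA methyltransferase Dnmt3b (0.86) were higher, and Ehmt2 (-0.49), which dimethylates H3K9, was lower. All 3 lost their calls without SuvER-4936, at adjusted p of 0.094 to 0.14, and Kdm4a and Dnmt3b also without either other culture (0.067 to 0.13). Mitosis genes were not called, though 34 of 34 had a positive difference, with a median of 0.89. Myc stood at 11.23, 11.22 and 11.60 in restored cultures, against 8.86, 10.61 and 11.77 in WT lymphomas, a difference of 0.83 that did not pass. Bcl2 stood at 8.72, 9.02 and 9.09 in restored cultures, all below the 9.18 to 11.46 of WT lymphomas, but the difference of -1.35 did not pass (adjusted p = 0.060) and another Bcl2 probe set read 0.16.

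Of 40 secretory factors 2 were lower, Tgfb1 and Ccl2, and 1 was higher, Ccl3, where 2.27% of all genes were lower and 2.13% higher. These few calls are not read as a result about the list. The list median was -0.77, and 0.16 with the fibroblast list as a covariate. Tgfb1, a growth-restraining cytokine, stood at 6.47, 6.64 and 6.64 in restored cultures, against 7.69, 8.30 and 8.99 in WT lymphomas, a difference of -1.76 (adjusted p = 0.00061). It held without each culture, with the fibroblast covariate and with the 18S covariate, but its other probe set differed by 0.13. Xbp1, the factor of the unfolded protein response and of plasma cells, stood at 8.96, 10.08 and 9.92 in restored cultures, against 10.30, 10.99 and 11.22 in WT lymphomas, a difference of -1.26 (adjusted p = 0.0043). It changed by -0.60 in restored cultures, which did not pass, and by 0.58 in WT lymphomas. Xbp1 held under the same settings. Of 23 stress genes 3 were called lower, against 2.27% of all genes. Besides Xbp1 they were Edem1 (-0.99), which clears misfolded proteins, and the chaperone Calr (-0.62). Both lost their calls without SuvER-4146 and without SuvER-4936, at adjusted p of 0.052 to 0.090, and Calr also without SuvER-5043 (0.10). Another Edem1 probe set differed by 0.068 on the log2 scale, which did not pass. The class I antigens H2-D1 (-0.87) and H2-K1 (-0.81) were also lower, and lost their calls without each culture in turn.

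Ccl3, a macrophage chemokine, was the secretory factor that was higher. It stood at 10.87, 11.26 and 12.22 in restored cultures, against 8.46, 9.86 and 10.75 in WT lymphomas, a difference of 1.63 (adjusted p = 0.043) that was lost without each culture (0.080 to 0.21). Its native levels were 8.10, 5.59 and 6.41 in these cultures, against 6.97, 8.71 and 10.05 in native WT lymphomas. It changed by 4.75 in restored cultures and by 1.24 in WT lymphomas, and the difference of 3.51 did not pass (adjusted p = 0.11) until SuvER-4146 was left out (0.016).

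The 8 genes with the lowest differences outside the WT range were chosen by size. Ms4a7, a macrophage membrane protein, stood at 5.44, 4.94 and 5.26 in restored cultures, against 6.10, 9.15 and 10.11 in WT lymphomas, a difference of -3.56. Clec4a3, a lectin receptor of myeloid cells, differed by -3.75, Pla2g7, a secreted lipase, by -3.60, and Ccl2, the monocyte chemokine, by -3.56. Lgals3, galectin-3, differed by -3.69, and the membrane-binding annexins Anxa1 and Anxa2 by -3.47 and -3.03. Mdfic, a transcription modulator, differed by -3.30. Ms4a7 and Clec4a3 held without each culture, and Ccl2, Lgals3, Anxa2 and Mdfic were lost without any 1 of them (adjusted p of 0.053 to 0.15). Anxa1 was lost without SuvER-5043 (0.073), and Pla2g7 without SuvER-4936 (0.077) and without SuvER-5043 (0.053). With the fibroblast list as a covariate Clec4a3 held (adjusted p = 0.023) and the other 7 were lost. The next probe sets of Ms4a7 (-0.45), Anxa1 (-0.25) and Anxa2 (-0.75) differed by less and did not pass.

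Markers of fibroblasts and macrophages mostly lay below 0 beside these genes, and 3 passed. Of 27 fibroblast markers none was called and 27 of 27 were below 0, with a median of -1.97. Their mean level ran from 4.89 to 5.47 in restored cultures, against 5.34 to 9.54 in WT lymphomas. Of 18 macrophage markers, 3 were lower (Ms4a7, Adgre1 and Ccr2), with a median of -1.47 and mean levels of 6.22 to 6.58 in restored cultures, against 6.40 to 8.80 in WT lymphomas. Of all genes 2.27% were lower. In WT lymphomas 25 of the 27 fibroblast markers were called higher under ADR, where 16.1% of all genes rose. None was called in the changes of restored cultures, where 1.38% of all genes rose, though 23 of the 27 lay above 0. The part of feeder or macrophage RNA in the lower genes was not tested beyond the covariate.

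The 3 genes whose changes differed were Lyz1, Ina and H1f4. Lyz1, a lysozyme gene kept in the macrophage list here, stood at 14.44, 13.22 and 14.06 in restored cultures, against 7.14, 4.76 and 9.0 native. In WT lymphomas it stood at 11.35, 12.77 and 13.83 after ADR, against 7.03, 11.71 and 12.77 native. It changed by 6.94 in restored cultures and 1.74 in WT lymphomas, a difference of 5.20 with an interval of 3.31 to 7.09 (adjusted p = 0.044). Treated levels overlapped, and native levels were 4.03 lower on average in restored cultures, a difference that did not pass. Lyz2, its neighbour and near copy, changed by 5.57 and 2.0, and Mpeg1, a pore protein of phagocytes, by 2.88 and 1.76. Lyz1 and Lyz2 probes may share signal. The macrophage markers Ms4a7 and Adgre1 changed by 0.12 and 0.83 in restored cultures, which did not pass, and by 2.69 and 2.18 in WT lymphomas. Cd36, a scavenger receptor, changed by 3.92 and 1.89.

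H1f4, a linker histone, stood at 2.23, 2.61 and 2.51 in restored cultures, against 5.18, 6.17 and 5.09 native. In WT lymphomas it stood at 2.61, 3.43 and 3.95 after ADR, against 3.49, 3.88 and 5.78 native. It changed by -3.03 in restored cultures and -0.71 in WT lymphomas, a difference of -2.32 with an interval of -3.02 to -1.62 (adjusted p = 0.0076). Its treated levels lie below the array medians of 4.07 to 4.43. Ina, an intermediate filament protein of neurons, stood at 5.84, 4.88 and 5.08 in restored cultures, against 3.96, 3.81 and 4.18 native, and read 3.78 to 5.01 in treated WT lymphomas, against 3.78 to 4.52 native. Its difference was 1.27, with an interval of 0.81 to 1.72 (adjusted p = 0.044). The native restored levels of Ina lie below the medians of those arrays, 4.35 to 4.37. Without SuvER-4936 none of the 3 passed (adjusted p = 0.16 each). Without SuvER-4146 H1f4 passed (0.029), and without SuvER-5043 also (0.028), while Lyz1 and Ina did not (0.050 to 0.31).

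**Figure D4:**
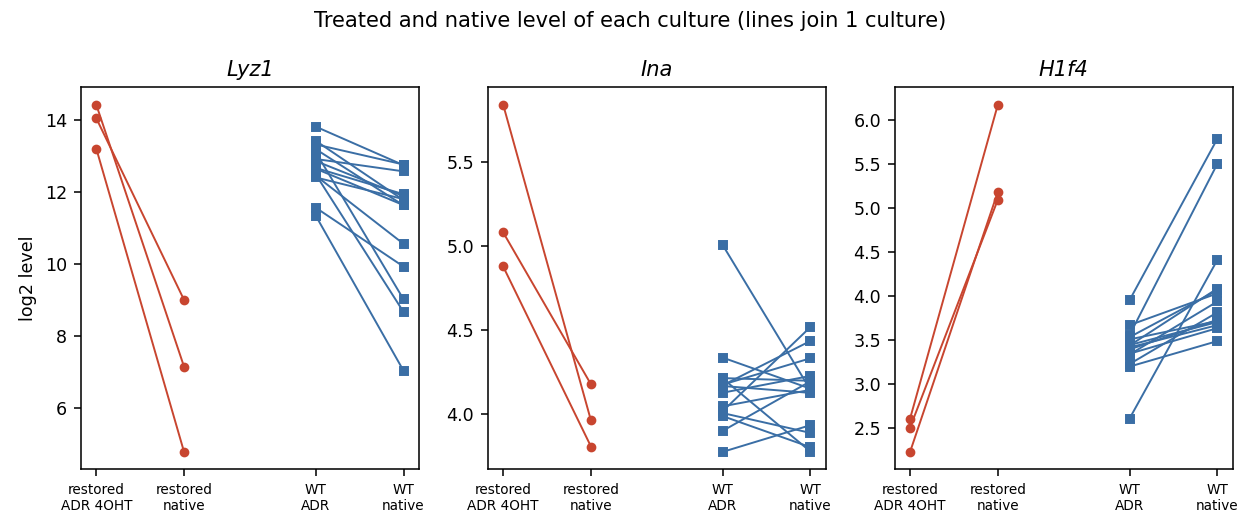
Level per array (log2) of Lyz1, Ina and H1f4, treated arrays left of native arrays within each group and restored cultures left of WT lymphomas; lines join the arrays labelled as 1 culture. All 3 restored cultures are higher treated than native for Lyz1 and Ina and lower for H1f4.

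Part of the senescent difference was present before treatment. Between native arrays, restored minus WT, 78 genes differed (0.429% of those tested), 18 higher (0.0989%) and 60 lower (0.330%). Of these, 42 also differed in the same direction after treatment, which is 53.85% of the native and 5.25% of the senescent differences. Of the 800 senescent differences, 83.62% had the same sign between native arrays, against 62.46% of the genes without a senescent call, and across all genes both differences correlated at 0.52. Both come from the same cultures, so this is a description. The native count was 14 without SuvER-4936 and 15 without SuvER-5043, and the carried count 5 and 7.

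Pik3cd, the delta catalytic subunit of PI3 kinase in lymphocytes, is one of these. It stood at 9.92, 10.53 and 10.29 in treated restored cultures, against 8.04, 8.55 and 9.35 in treated WT lymphomas, a difference of 1.75 (adjusted p = 0.00026). Native levels were 10.26, 10.46 and 10.17 in these cultures, against 7.98, 8.55 and 9.28 in native WT lymphomas, a difference of 1.70. It held in both without each culture, but its second probe set did not pass after treatment (adjusted p = 0.84) and read -0.36 between native arrays. The calcium channel Trpc1 differed by 1.32 after treatment and 1.67 between native arrays. Vgll4, a partner of TEAD factors, differed by 1.55 and 0.77, Ilk, an integrin-linked kinase, by -0.78 and -0.50, and galectin-9 (Lgals9) by -1.56 and -1.69.

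Others of this kind were immune receptors and signal carriers. Cd84, an adhesion receptor of lymphocytes, differed by -2.09 after treatment and -1.37 between native arrays, Ifitm2, an antiviral membrane protein, by -1.71 and -1.52, and Stat3, a cytokine-signalling factor, by -0.53 and -0.76. Tgfb1 differed by -1.76 and -1.23. Some native differences had no senescent counterpart that passed. Cd79a, the partner of Cd79b, stood at 8.21, 8.37 and 7.67 in native restored cultures, against 9.27, 9.87 and 10.46 in native WT lymphomas, a difference of -1.77 (adjusted p = 0.00051) with no overlap. Its senescent difference of -1.28 did not pass. Cd37, a tetraspanin of B cells, differed by -1.35 and Cd74, the class II invariant chain, by -2.51 between native arrays, and by -0.91 and -0.90 after treatment, which did not pass.

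**Figure D5:**
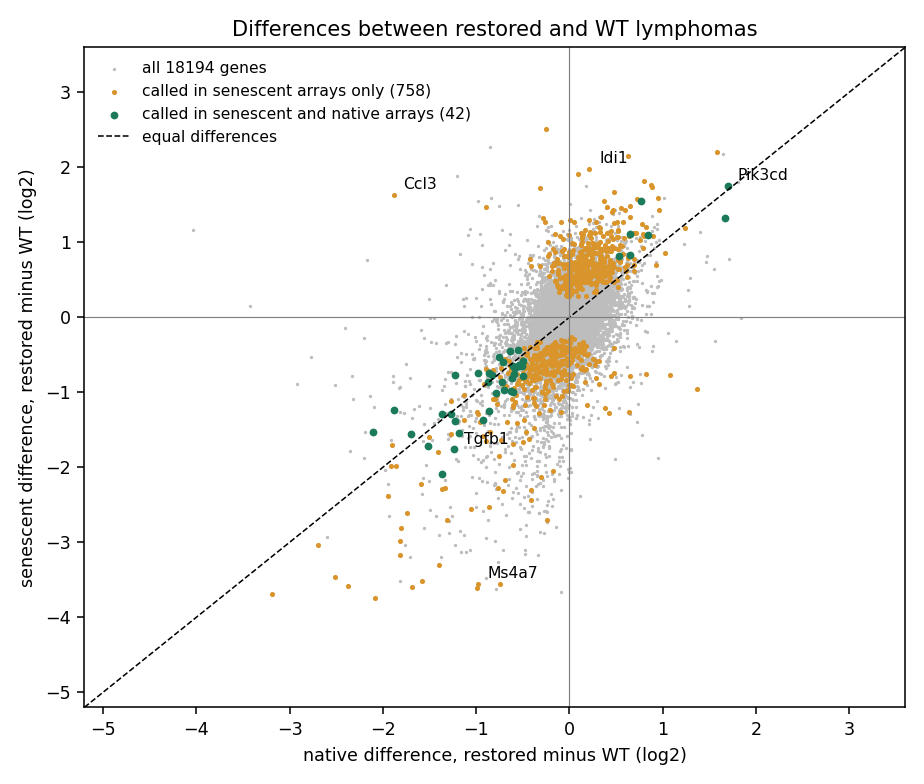
Difference between treated arrays, restored minus WT (vertical axis, log2), against the difference between native arrays (horizontal axis, log2), 1 point per gene; genes called in both are marked. Pik3cd and Tgfb1 lie near the diagonal, and Ccl3 lies above 0 after treatment but below 0 between native arrays.

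Genes that differed after treatment without a native call make up the rest. Apof, a plasma lipoprotein regulator, stood at 6.55, 6.37 and 6.33 in restored cultures, against 3.91, 4.32 and 5.92 in WT lymphomas, a difference of 1.91 (adjusted p = 0.0034) against 0.09 between native arrays. It held without each culture. Gfi1, a repressor in blood cell development, differed by 1.81, Cxcr5, the chemokine receptor that guides B cells to follicles, by 1.74, and the unannotated Gm9564 and 9230112D13Rik by 1.73 and 1.67. Those 4 lost their calls without each culture (adjusted p of 0.056 to 0.17).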

How the data were processed

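The authors deposited log2 levels for each probe set of Affymetrix mouse arrays. Per the submitters' processing notes, RMA and oligo were used with R 3.5.0. The sources used here do not say whether all 47 arrays were normalized together. The brightest probe set over all arrays stood for each gene, taken from 34958 probe sets with 1 symbol (932 had several and 9211 are unnamed here), which gave 18194 genes. Array medians ran from 4.07 to 4.43, and the number of arrays limits the precision. Scan batches were not analysed here.

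Senescent and native groups were each compared with limma 3.58.1 in R 4.3.3 without covariates. Changes from native came from 1 fit of all 47 arrays with 22 cultures as blocks. The design text describes matched pairs and the titles give the culture, which is where the pairing comes from. In the check, treated and native arrays of a culture deviated together (r above 0.1) in 0 of 3 restored cultures and 10 of 14 WT lymphomas. All tests were two-sided, with Benjamini-Hochberg adjustment over all genes and calls at 0.05. The test of each comparison was tested on simulated data with changes placed in the group it measures. The simulation drew the 22 labelled cultures as independent and truly paired, so it cannot speak to the doubts about the restored cultures.

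The members and the 33 gene lists (621 of 678 members measured) were chosen with earlier results of these data known. Genes named by rule are the 8 highest and 8 lowest senescent calls outside the WT range, the called response differences, the 6 largest shared rises and 6 largest shared falls, and, per list, the 3 smallest p in the senescent comparison, with fixed genes such as Myc and Lmnb1. The rest, such as Hmgcs1, Lamp1, Ccl5, Cd36, Cd79a and the genes named beside Pik3cd and Cd84 in the native comparison, were chosen after their values were seen. Alternatives were another scaling, a filter on dim genes, all probe sets, left-out cultures, 4 alike WT lymphomas (2949, 5043, 5766 and 6054) as 1, covariates and no block.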

Additional observations from a re-analysis of the deposited data

Results flagged for a closer look

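The change of Lyz1 differed between restored and WT cultures by 5.20, by limma's test of the difference itself. Ina differed by 1.27 in the same test. H1f4 differed by -2.32 in the same test.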

How the results depend on the processing

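Leaving out 1 culture gave 264 to 735 senescent differences, 90 to 493 restored changes, 0 to 6 response differences and 14 to 90 native differences. The shared genes then numbered 67 to 394, those with an interval within 1 numbered 29 to 277, and the carried genes 5 to 35. With SuvER-4936 and SuvER-5043 as 1 culture, chosen after seeing the data, these counts were 244, 58, 0, 11, 49, 20 and 4. Also chosen after seeing the data, the 18S control as a covariate left 65 senescent differences and the Gapdh 3′ minus 5′ difference 518, while the planned fibroblast covariate left 466. With all probe sets apart, 2126 senescent, 9757 WT, 6 response, 500 native and 224 carried calls were made. Response differences fell to 0 with a filter at a mean of 6, with the 4 alike WT lymphomas as 1 and with the fibroblast change as a covariate. The native count was 49 on centred arrays and 45 with a random block. The carried count was 23 on centred arrays, 27 with the 4 alike lymphomas as 1 and 27 with trend and robust settings.

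With no replicate block the counts were 267 restored changes, 1 response difference, 202 shared genes and 146 shared genes with an interval within 1. No paired analysis was possible for the senescent and native comparisons because the groups share only 1 lymphoma number.

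The second brightest probe set turned the sign of the senescent difference for Tgfb1 (0.13), Edem1 (0.068), Atg4b (0.27) and Bcl2 (0.16), of the restored change for Nrm (0.014), and of the native difference for Pik3cd (-0.36) and Tgfb1 (0.13). The cause of these shifts was not tested. With 3 restored cultures, small differences could not be seen, and signal over background was not used here.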

Other observations

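Oxidative phosphorylation genes fell slightly in both changes from native. Of 23 measured, 4 fell in restored cultures with a list median of -0.28, and 13 fell in WT lymphomas with a median of -0.22. Of all genes 1.57% fell in restored cultures and 14.1% in WT lymphomas. At most 1 of the 23 was called in restored cultures when any 1 culture was left out. Of 30 Myc target and ribosome biogenesis genes, none changed in restored cultures (median 0.01), and in WT lymphomas 12 fell and 1 rose (median -0.25). Ppat, an enzyme of purine synthesis, was the 1 member that differed between senescent arrays, higher by 0.97 in restored cultures (limma adjusted p = 0.042). It was lost without each restored culture, and its next probe set differed by 0.05.

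Of 15 estrogen receptor targets none differed between senescent arrays, with a median difference of -0.16. In the changes from native 1 rose in restored cultures, a call lost without SuvER-4936 and without SuvER-5043, and 3 rose and 1 fell in WT lymphomas. Of all genes 1.38% rose in restored cultures, and 16.1% rose and 14.1% fell in WT lymphomas. These counts are not read as a result about the list. Of 12 precursor B cell genes 2 were lower in restored cultures than in WT lymphomas, against 2.27% of all genes. Neither call remained when any 1 restored culture was left out. Rag2, a subunit of the recombinase of antigen receptor genes, is 1 of them, at 3.98, 3.66 and 3.90 in restored cultures, against 4.28, 4.55 and 5.40 (lowest, median, highest) in WT lymphomas. Its native levels were 4.04, 5.89 and 6.18 in the same cultures, and its restored change of -1.52 (adjusted p = 0.016) was lost without SuvER-4936 (0.11) and without SuvER-5043 (0.16). The treated restored levels of Rag2 lie below the array medians of 4.07 to 4.43. Cd74, the class II invariant chain, read 10.69, 10.54 and 10.27 in treated restored cultures, against 10.91, 7.69 and 8.05 native, a change of 1.62 that did not pass (adjusted p = 0.088).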
